A study of Mus musculus with 4 samples.

Results

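The genes described here are serum response factor (Srf) and 9 genes of the contractile actin cytoskeleton: the actins Acta2 and Actg2, the transgelins Tagln and Tagln2, the calponins Cnn1 and Cnn2, the myosin light chain Myl9 and the tropomyosins Tpm1 and Tpm2. They were chosen by symbol, and all 10 were among the 24346 gene symbols in the tables. MC38 cells, a line derived from a mouse colon carcinoma, were profiled by RNA sequencing in 2 libraries labelled Arid5a knockout (KO) and 2 labelled wild type (WT). The labels name no treatment, and they give neither the editing method, the deleted part of Arid5a, nor whether the KO cells are a single clone. Levels are FPKM, fragments per kilobase of transcript, scaled to the mapped fragments of the library, and a change is the difference of log2(FPKM + 1), KO minus WT.

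Srf is a transcription factor that binds a short DNA motif, the CArG box, in the control regions of actin cytoskeleton genes and of immediate early genes. Its partners fall into groups: myocardin and the myocardin-related factors, which are held in the cytoplasm by monomeric actin, and the ternary complex factors of the ETS family, which respond to MAP kinases. In smooth muscle and in myofibroblasts, Srf with myocardin-type partners drives Acta2, Tagln and Cnn1, the standard markers of the contractile state, while most other cells use paralogues of these genes for stress fibres and cell shape.

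In these MC38 cells the muscle-type genes Acta2, Actg2, Tagln, Cnn1 and Myl9 were each below 0.5 FPKM in every library, and Tagln2, Cnn2, Tpm1, Tpm2 and Srf were above 13 FPKM in every library. In the libraries labelled KO, Tpm1 was higher (1.27-fold by the ratio of mean FPKM) and Tpm2 lower (0.812-fold), Cnn2 was slightly higher, and Tagln2 and Srf did not pass the test. The cytoplasmic actins parted in the same way, with Actb higher and Actg1 lower.

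Promoter sequences from RefSeq (GRCm38.p6) were matched to 8 of the 10 genes, all but Actg2 and Tagln. They are shown because the CArG box is the motif that Srf binds. Each window ran from 250 bases before to 50 bases after the annotated start. A strict CArG box, with only A and T between its paired C and paired G ends, was found in the windows of Srf, Cnn2 and Myl9. It reads as a CArG box on either strand. Such a box is in 1.63% of all 32851 promoter windows of this length. Srf had 2, at 82 and 62 bases upstream of its start, and 2 or more strict boxes are in 0.0183% of windows. Cnn2 had 1 at 56 bases and Myl9 had 1 at 161 bases. When 1 C or G was allowed in the core, Acta2 gained 2 matches, at 84 and 34 bases, and Myl9 gained 1, at 99 bases. This looser form is in 9.98% of all windows. No match of either form was found in the windows of Tagln2, Cnn1, Tpm1 and Tpm2. A match is a description of the letters and not a binding site. The 250 bases upstream of the start are printed 5′ to 3′ on the gene's strand, with matches in capitals. They span chr17:46556163-46556412 (minus strand) for Srf, chr10:79988350-79988599 (plus) for Cnn2, chr2:156775214-156775463 (plus) for Myl9 and chr19:34255374-34255623 (minus) for Acta2. Distances count from the RefSeq start, which is not the GENCODE M21 start of these genes. For Acta2 the GENCODE start is at 34255590, so most of its printed bases and both its matches lie inside the GENCODE gene.
Srf: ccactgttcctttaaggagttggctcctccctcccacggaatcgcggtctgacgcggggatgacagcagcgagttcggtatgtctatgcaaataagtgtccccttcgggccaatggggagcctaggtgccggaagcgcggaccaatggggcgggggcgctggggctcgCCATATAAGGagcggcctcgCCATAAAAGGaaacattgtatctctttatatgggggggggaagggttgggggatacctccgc
Cnn2: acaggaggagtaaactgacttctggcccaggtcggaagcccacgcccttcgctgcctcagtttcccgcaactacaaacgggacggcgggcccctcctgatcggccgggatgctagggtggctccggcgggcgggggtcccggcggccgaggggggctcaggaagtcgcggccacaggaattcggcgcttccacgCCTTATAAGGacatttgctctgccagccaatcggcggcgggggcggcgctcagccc
Myl9: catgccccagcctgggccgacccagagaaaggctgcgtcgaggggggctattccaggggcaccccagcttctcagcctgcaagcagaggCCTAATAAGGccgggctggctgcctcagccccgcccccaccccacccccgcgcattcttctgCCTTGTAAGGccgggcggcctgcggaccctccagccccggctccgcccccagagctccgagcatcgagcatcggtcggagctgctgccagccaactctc
Acta2: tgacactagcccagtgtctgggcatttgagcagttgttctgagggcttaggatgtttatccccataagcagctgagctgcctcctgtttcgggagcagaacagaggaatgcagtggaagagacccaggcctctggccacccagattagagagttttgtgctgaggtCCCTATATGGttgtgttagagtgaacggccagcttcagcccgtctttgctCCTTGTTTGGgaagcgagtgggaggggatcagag
The strict boxes stood upstream of genes at very different levels, since Cnn2 was near 70 FPKM and Myl9 was listed at 0 in all libraries but KO replicate 2.

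Arid5a, the targeted gene, had 2.16 and 1.77 FPKM in the libraries labelled KO and 0.225 and 0.124 FPKM in those labelled WT, which goes against the labels (log2 change 1.33 ± 0.13 SE, limma, adjusted p = 0.0013). The value covers the gene as a whole, so it does not show whether a deleted part was transcribed. The tables' own column names carry a code in place of KO or WT and do not show which cells are the knockout. Every direction given here therefore follows the labels as deposited and cannot be read as that of a loss of Arid5a, and if the labels were swapped every direction would turn. The FPKM of all symbols added up to 638120 and 629442 in the KO libraries and to 600844 and 609178 in the WT libraries. Depth relative to WT replicate 1 was 0.670 and 0.743 in the KO libraries and 0.767 in WT replicate 2. All 12 epithelial markers checked, among them Cdh1, Epcam and the intestinal factor Cdx2, were below 1 FPKM in every library, with Epcam, Cdx2 and Cldn7 at 0, so the colon epithelial origin is not visible in these defining markers.

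**Figure D1:**
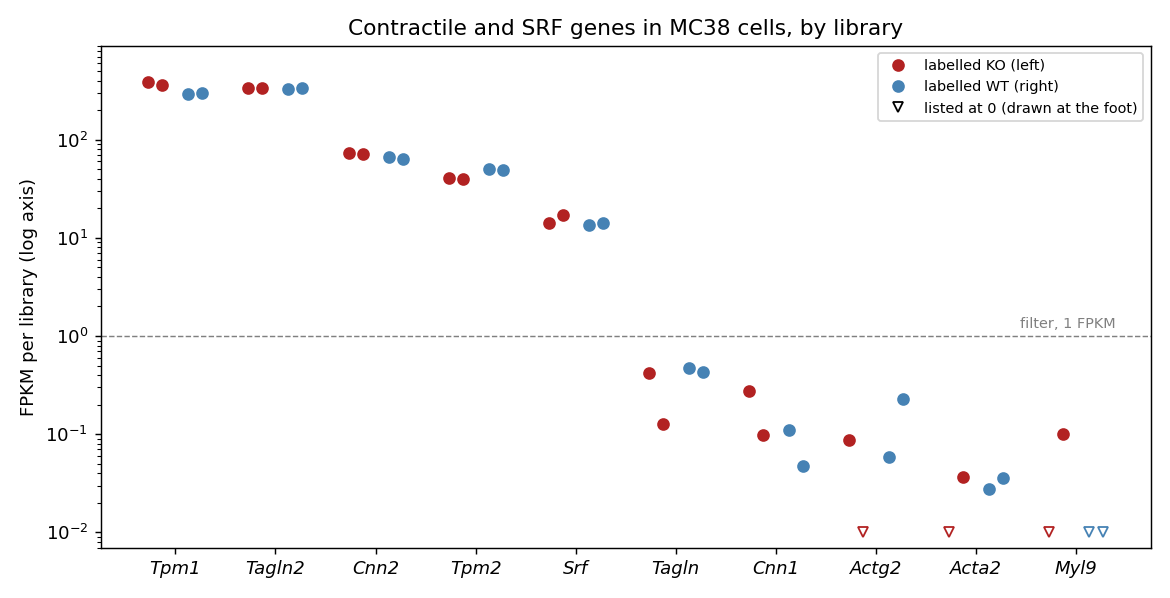
FPKM of the 10 genes in each library on a log axis, KO left and WT right of each position; open triangles at the foot mark values listed at 0. Tpm1, Tagln2, Cnn2, Tpm2 and Srf lie above the 1 FPKM filter, and Tagln, Cnn1, Actg2, Acta2 and Myl9 lie below it in every library.

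Srf itself (chromosome 17, 46548329 to 46556175, minus strand, GRCm38) had 14.3 and 17.2 FPKM in KO libraries and 13.6 and 14.1 FPKM in WT libraries. The groups did not overlap, but KO replicate 1 lay within 0.2 FPKM of WT replicate 2, and the higher mean rested on KO replicate 2. Its log2 change of 0.17 ± 0.091 (SE) did not pass the test (limma, adjusted p = 0.186). Without KO replicate 1 it was 0.29 and passed the test (limma, adjusted p = 0.0293), and without KO replicate 2 it was 0.040 (limma, adjusted p = 0.643). A long noncoding gene on the opposite strand, Gm26904, spans the whole of Srf in GENCODE M21. Reads from it could count toward Srf if strand was ignored, and the sources used here do not say how strand was handled.

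The expressed partners of Srf included myocardin-related factors, ternary complex factors and the LIM protein Fhl2. Myocd, myocardin, the muscle-restricted coactivator, was listed at 0 in all 4 libraries. Mkl1, the coactivator MRTF-A that senses monomeric actin, was at 12.5 and 11.9 FPKM in KO libraries and at 11 and 12.2 FPKM in WT libraries, and the groups overlapped (log2 change 0.070 ± 0.067 SE, limma, adjusted p = 0.425). Its relative Mkl2, MRTF-B, was at 6.83 and 5.75 FPKM against 4.90 and 5.44 FPKM in WT libraries (log2 change 0.24 ± 0.099 SE, limma, adjusted p = 0.103). Neither coactivator passed the test.

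Scai, a protein that suppresses MRTF-Srf transcription, was 2.28-fold higher by the ratio of means. It was at 3.62 and 4.08 FPKM in KO libraries and at 1.62 and 1.75 FPKM in WT libraries (log2 change 0.85 ± 0.093 SE, limma, adjusted p = 0.0019). Elk3, a ternary complex factor that can repress transcription, was at 16.2 and 14.8 FPKM in KO libraries and at 8.58 and 8.60 FPKM in WT libraries (0.78 ± 0.062 SE, limma, adjusted p = 0.000752). Elk4, another ternary complex factor, was at 7.10 and 7.38 FPKM against 5.24 and 5.34 FPKM in WT libraries (0.39 ± 0.062 SE, limma, adjusted p = 0.00616). These 3 of 8 tested cofactors rose and none fell, also at an unadjusted p under 0.05 (limma), and the groups of each were well apart. Among all tested genes 47.6% were called and 24.4% were called higher, so 3 of 8 called is no more than the background.

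The other 3 cofactors did not pass. Elk1, the third ternary complex factor, was at 8.67 and 9.51 FPKM in KO libraries and at 9.93 and 9.76 FPKM in WT libraries (log2 change -0.11, limma, adjusted p = 0.227). Fhl2, both a partner and a target of Srf, was at 19.5 and 20.0 FPKM in KO libraries and at 18.0 and 19.9 FPKM in WT libraries and differed by 0.061 (limma, adjusted p = 0.437) with overlapping groups. Mical2, an actin-oxidising enzyme that promotes MRTF activity, differed by 0.16 (limma, adjusted p = 0.152).

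The muscle-type actins were at the limit of detection. Acta2, smooth muscle alpha-actin and the usual marker of myofibroblasts (chromosome 19, 34241090 to 34255590, minus strand), measured 0 and 0.0370 FPKM in KO libraries and 0.0275 and 0.0359 FPKM in WT libraries. Low FPKM values are multiples of what 1 fragment is worth in a library, and scaled by relative depth these values were in the ratio of 0, 1, 1 and 1 fragments. Actg2, the enteric smooth muscle gamma-actin (chromosome 6, 83512905 to 83536265, minus strand), measured 0.0878 and 0 FPKM in KO libraries and 0.0588 and 0.230 FPKM in WT libraries, in the ratio of 1 and 0 fragments against 1 and 3. These are the smallest whole numbers that fit, so a common multiple of them is possible. Together Acta2 and Actg2 made up 0.00299% and 0.00124% of the FPKM of the 6 actin genes in KO libraries and 0.00337% and 0.0102% in WT libraries. No difference was detectable at this depth.

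The actin mRNA of these cells was that of the cytoplasmic genes. Actb, beta-actin, was at 2242 and 2277 FPKM in KO libraries and at 1748 and 1789 FPKM in WT libraries (log2 change 0.35 ± 0.025 SE, limma, adjusted p = 0.00058). Actg1, cytoplasmic gamma-actin, was at 695 and 714 FPKM in KO libraries and at 812 and 819 FPKM in WT libraries (-0.21 ± 0.026 SE, limma, adjusted p = 0.00255). The ratio of Actb to Actg1 was 3.23 and 3.19 in KO libraries, against 2.15 and 2.18 in WT libraries, so the balance of the cytoplasmic actins differed between groups in every library. Actb ranked 45 by mean FPKM, and under quantile normalization, which gives every library the same set of values, its log2 change was 0.11 (limma, adjusted p = 0.0349). Actins are close in sequence, and how reads that match several of them were assigned is not stated in the labels.

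The transgelins, small actin-binding proteins of the calponin family, were represented almost wholly by Tagln2. Tagln, SM22-alpha, an early marker of smooth muscle (chromosome 9, 45929619 to 45936058, minus strand), measured 0.423 and 0.127 FPKM in KO libraries and 0.472 and 0.431 FPKM in WT libraries. These stood in the ratio of 6 and 2 fragments against 10 and 7. The groups did not overlap, but KO replicate 1 was close to both WT libraries and KO replicate 2 alone was low. Its 3′ end overlaps Pcsk7 on the opposite strand by 108 bases, and the antisense gene Gm48529 overlaps Tagln by 3627 bases. Tagln2, the widely expressed relative (chromosome 1, 172500047 to 172507380, plus strand), was at 337 and 336 FPKM in KO libraries and at 329 and 336 FPKM in WT libraries. It made up 99.8% and 99.9% of the transgelin FPKM in KO libraries and 99.8% and 99.8% in WT libraries. Tagln2 differed by 0.019 ± 0.025 (SE) on the log2 scale and did not pass (limma, adjusted p = 0.563), and quantile normalization turned its sign (-0.040).

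The calponins, which bind actin and restrain myosin, showed the same split between muscle and non-muscle forms. Cnn1, the smooth muscle calponin (chromosome 9, 22099216 to 22109630, plus strand), was at 0.273 and 0.0984 FPKM in KO libraries and at 0.110 and 0.0477 FPKM in WT libraries, in the ratio of 5 and 2 fragments against 3 and 1. Cnn2, a non-muscle calponin of stress fibres (chromosome 10, 79988584 to 79996062, plus strand), was at 73.0 and 71.3 FPKM in KO libraries and at 66.6 and 64.2 FPKM in WT libraries. The groups did not overlap, and the log2 change of 0.14 ± 0.035 (SE) passed the test (limma, adjusted p = 0.0248). That call was lost whichever library was left out (limma, adjusted p of 0.0951 and 0.056 without KO replicate 1 or 2, and of 0.0524 and 0.12 without WT replicate 1 or 2).

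Cnn3, the acidic calponin, was the most abundant of this family at 197 and 186 FPKM in KO libraries and 155 and 161 FPKM in WT libraries (log2 change 0.28 ± 0.040 SE, limma, adjusted p = 0.00448). Cnn2 made up 27.0% and 27.7% of the calponin FPKM in KO libraries and 30.1% and 28.4% in WT libraries. Cnn2 and Cnn3 were both higher in KO libraries.

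The tropomyosins, coiled-coil proteins that run along actin filaments and set which myosins and binding proteins can reach them, carried the clearest differences among the 10 genes. Tpm1 (chromosome 9, 67022590 to 67049406, minus strand) measured 387 and 364 FPKM in KO libraries and 295 and 297 FPKM in WT libraries. Every KO library lay above both WT libraries by more than 60 FPKM. Its log2 change of 0.34 ± 0.036 (SE) passed the test (limma, adjusted p = 0.0017). Tpm2, beta-tropomyosin (chromosome 4, 43514711 to 43523765, minus strand), went the other way. It was at 41.1 and 39.9 FPKM in KO libraries and at 50.5 and 49.3 FPKM in WT libraries, and its log2 change of -0.29 ± 0.036 (SE) passed as well (limma, adjusted p = 0.00261). Both calls held in all 11 alternatives, with adjusted p (limma) up to 0.0152 for Tpm1 and up to 0.0235 for Tpm2.

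The ratio of Tpm1 to Tpm2 was 9.41 and 9.11 in KO libraries, against 5.84 and 6.02 in WT libraries. Tpm1 made up 37% and 36% of the FPKM of the 4 tropomyosin genes in KO libraries, against 32.3% and 32.3% in WT libraries. Tpm2 made up 3.93% and 3.95% in KO libraries, against 5.53% and 5.36% in WT libraries. The shares of both genes differed between groups by more than the spread within either.

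Tpm3 and Tpm4 are the other tropomyosin genes. Tpm4 was at 266 and 261 FPKM in KO libraries and at 231 and 234 FPKM in WT libraries (log2 change 0.18 ± 0.026 SE, limma, adjusted p = 0.00434). Tpm3 was at 351 and 345 FPKM in KO libraries and at 337 and 340 FPKM in WT libraries, a log2 change of 0.042 (limma, adjusted p = 0.217) that turned to -0.013 under quantile normalization. Tpm1 and Tpm2 each make muscle and non-muscle forms by alternative promoters and exons, with 21 and 6 transcripts annotated in GENCODE M21, and values per gene do not show which forms changed.

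**Figure D2:**
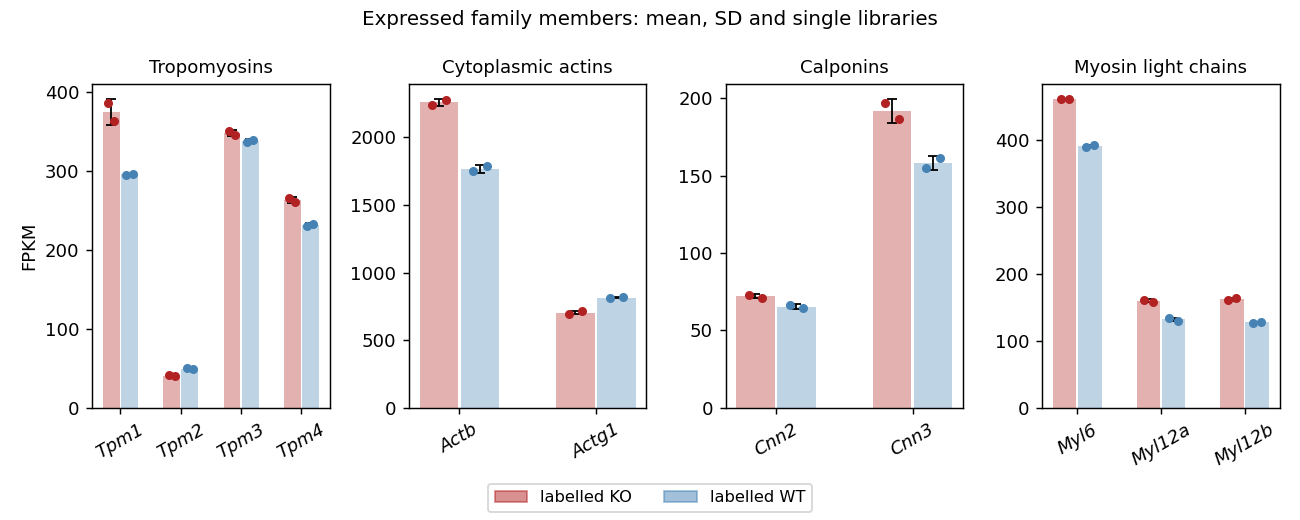
FPKM of the expressed members of 4 families in KO (left) and WT (right) libraries; bars are means, error bars SD, points single libraries (n = 2 per group). Tpm1 and Actb are higher and Tpm2 and Actg1 lower in KO libraries, while Cnn2, Cnn3 and the light chains are higher.

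Myl9, the regulatory light chain of smooth muscle myosin (chromosome 2, 156775420 to 156781658, plus strand), was at 0 and 0.10 FPKM in KO libraries and was listed at 0 in both WT libraries. The value in KO replicate 2 corresponds to between 0.963 and 1.5 fragments, depending on the depth estimate. The light chains measured at a high level were the non-muscle ones. Myl12a was at 162 and 159 FPKM in KO libraries and at 134 and 131 FPKM in WT libraries (log2 change 0.27 ± 0.029 SE, limma, adjusted p = 0.00184). Myl12b was at 161 and 164 FPKM in KO libraries and at 127 and 128 FPKM in WT libraries (0.34 ± 0.027 SE, limma, adjusted p = 0.000774). Myl12a and Myl12b are close in sequence and can share reads, so the split between them is uncertain. The higher values of both therefore do not show that each gene rose. The sum of Myl9, Myl12a and Myl12b was 322 and 323 FPKM in KO libraries and 262 and 259 FPKM in WT libraries.

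The essential light chain Myl6 was at 462 and 461 FPKM in KO libraries and at 390 and 392 FPKM in WT libraries (0.24 ± 0.023 SE, limma, adjusted p = 0.00135). Its relative Myl6b did not pass, with a log2 change of 0.11 (limma, adjusted p = 0.258) and overlapping groups. The 2 remaining striated-type paralogues were at or near 0. Acta1, skeletal alpha-actin, was at 0.0763 and 0.0687 FPKM in KO libraries and at 0.102 and 0.200 FPKM in WT libraries, and Actc1, cardiac alpha-actin, was listed at 0 throughout. Tagln3, the neuronal transgelin, was at 0.305 and 0.0917 FPKM in KO libraries and at 0.341 and 0.267 FPKM in WT libraries.

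By mean FPKM over the 4 libraries, Tpm1 and Tagln2 ranked 259 and 260 of 24346 symbols, Cnn2 ranked 1444, Tpm2 2228 and Srf 5369. The order of the leading pair differed by group: Tpm1 was above Tagln2 in both KO libraries and below it in both WT libraries. The ratio of Tagln2 to Tpm1 was 0.873 and 0.924 in KO libraries and 1.12 and 1.13 in WT libraries. Cnn2 stood above Tpm2, and Tpm2 above Srf, in every library. Of the low genes, Tagln had the highest mean, and its range over libraries overlapped those of Cnn1 and Actg2.

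Of the 10 genes, 5 passed the filter of a mean of at least 1 FPKM and were tested. Of these, 2 were called higher (Tpm1 and Cnn2) and 1 lower (Tpm2) at a Benjamini-Hochberg adjusted p under 0.05 over all tested genes (limma). Among all 10827 genes tested, 47.6% were called, 24.4% higher and 23.3% lower, so 3 of 5 is near the background. The groups did not overlap for any of the 5, against 77.5% of all tested genes. The median change of the 5 was 0.14, against 0.0056 for all tested genes. With no filter, none of the 5 low genes passed, also at an unadjusted p under 0.05, with adjusted p (limma) of 0.307 for Tagln, 0.32 for Cnn1, 0.358 for Actg2, 0.429 for Myl9 and 0.744 for Acta2. Of the 9 paralogues tested, 6 rose and 1 fell, with a median of 0.24.

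**Figure D3:**
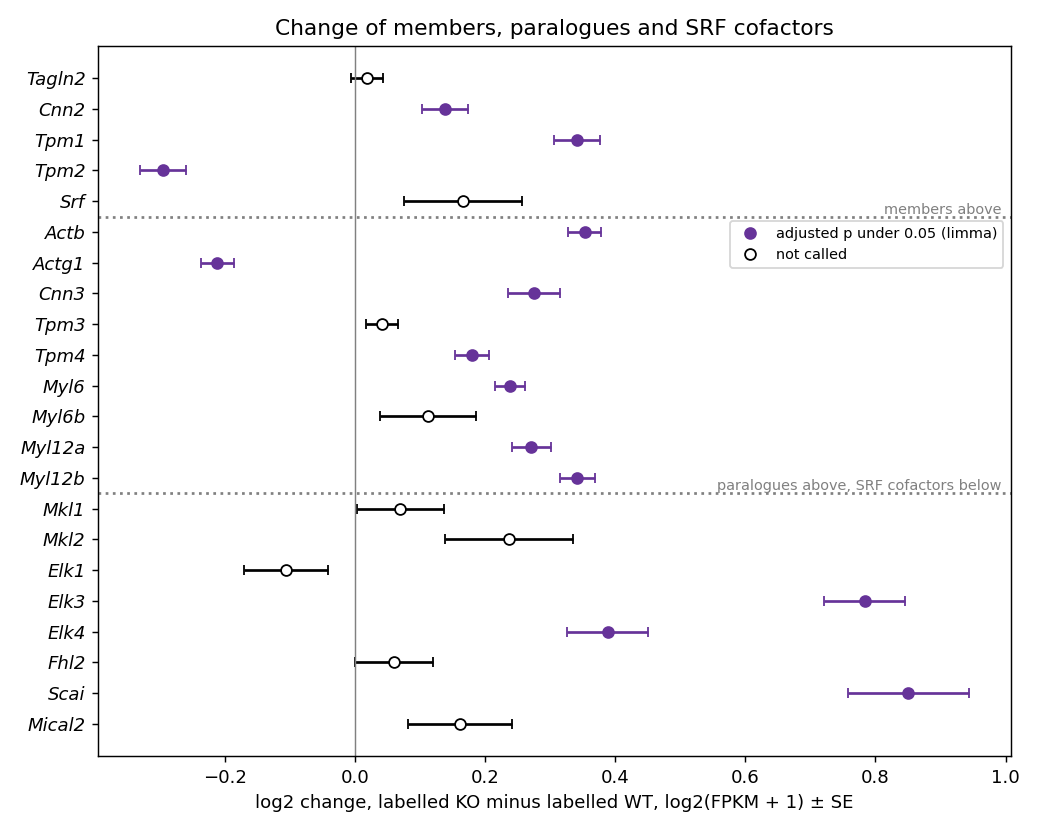
Log2 change (KO minus WT, ± SE from limma) of the tested genes among the 10, their paralogues and the SRF cofactors; filled points passed an adjusted p of 0.05. Tpm2 and Actg1 are the called genes left of 0, and Scai and Elk3 lie farthest to the right.

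Further genes of the contractile apparatus of smooth muscle were taken from a list of 19. Of these, 12 were below the filter, and Myh11, the smooth muscle myosin heavy chain, Lmod1, a leiomodin that seeds actin filaments, and Ppp1r14a, an inhibitor of myosin phosphatase, were listed at 0 in all libraries. Of the 7 tested, 3 rose and 3 fell, against 47.6% of all tested genes called in either direction, and no median is given because a listed gene was left out. The small heat shock protein Hspb6 was at 16.1 and 16.0 FPKM in KO libraries and at 10.5 and 11.5 FPKM in WT libraries (log2 change 0.51 ± 0.058 SE). The others that rose were the LIM protein Pdlim7 (0.41) and vinculin, Vcl (0.22). Integrin alpha-1, Itga1, fell by 0.57 on the log2 scale, the LIM protein Csrp1 by 0.31 and caldesmon, Cald1, an actin-binding brake on myosin, by 0.30. Cald1 was at 135 and 131 FPKM in KO libraries and at 163.4 and 164.7 FPKM in WT libraries.

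Mylk, the kinase that phosphorylates myosin regulatory light chains, was below the filter by its mean. It was at 0.383 and 0.276 FPKM in KO libraries and at 1.54 and 1.37 FPKM in WT libraries, and the groups were well apart. In the fit without a filter it fell by 0.89 ± 0.079 (SE) on the log2 scale (limma, adjusted p = 0.00382).

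Cytoskeletal genes reported as targets of MRTF and Srf moved in both directions. Of 20 tested of 25, 10 rose and 5 fell, with a median of 0.18. Among these, Vcl, Pdlim7 and Cald1 were already counted in the smooth muscle list, so the counts are not independent. Over all tested genes 24.4% were called higher and 23.3% lower, so the 5 of 20 that fell are near the background. Cyr61, a matricellular protein, was at 79.5 and 79.3 FPKM in KO libraries and at 29.96 and 29.37 FPKM in WT libraries (log2 change 1.39 ± 0.032 SE, limma, adjusted p = 3.78e-05). The actin-binding LIM protein Ablim1 was at 2.14 and 2.64 FPKM in KO libraries and at 0.661 and 0.545 FPKM in WT libraries (1.08 ± 0.12 SE). By the ratio of mean FPKM, Ablim1 was 3.96-fold and Cyr61 2.68-fold higher. Enah, which promotes actin filament elongation, rose by 0.64, and the crosslinker alpha-actinin, Actn1, rose by 0.48 to 113 and 116 FPKM in KO libraries, against 81.7 and 81.2 FPKM in WT libraries. The 5 that fell were the focal adhesion protein Tes (-0.38), Lima1 (-0.31), Cald1 (-0.30), the cofilin partner Wdr1 (-0.29) and Pdlim5 (-0.28). Lima1 was not called without KO replicate 1 or WT replicate 2 (limma, adjusted p of 0.0558 and 0.0712), nor was Pdlim5 without WT replicate 2 (limma, adjusted p = 0.0518).

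Immediate early genes under Srf and ternary complex factors fell or did not pass. Of 7 tested of 10, none rose, also at an unadjusted p under 0.05 (limma), and 2 fell, with a median of -0.086 that includes Srf itself. Over all tested genes 23.3% were called lower, so 2 of 7 is near the background. Egr1, an early growth response transcription factor, was at 4.68 and 4.03 FPKM in KO libraries and at 16.3 and 17.2 FPKM in WT libraries (log2 change -1.73 ± 0.079 SE, limma, adjusted p = 0.000182). Ier2 was at 25.5 and 25.6 FPKM in KO libraries and at 31.1 and 31.9 FPKM in WT libraries (-0.29 ± 0.038 SE, limma, adjusted p = 0.00305). Egr2 and Egr3, relatives of Egr1, were below the filter. Egr2 was at 0.0705 and 0.0952 FPKM in KO libraries and at 0.283 and 0.369 FPKM in WT libraries. Egr3 was at 0.271 and 0.219 FPKM in KO libraries and at 1.38 and 1.29 FPKM in WT libraries. Their ratios of mean FPKM (KO over WT) were 0.254 and 0.184. By this ratio Junb (1.08) and Nr4a1 (1.25) were above 1 and Fos (0.598) and Mcl1 (0.941) below 1, none of them called.

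Genes of ROCK signalling and myosin light chain control, the pathway that builds stress fibres and depletes monomeric actin, were also tested. Of 14 tested, 9 rose and 1 fell, with a median of 0.20, where 24.4% of all tested genes were called higher and 23.3% lower. Mylk, the kinase described above, is also on this list but was below the filter and not among the 14. Its ratio of mean FPKM (KO over WT) was 0.226. Rhob, a stress-inducible small GTPase, was at 25.7 and 26.3 FPKM in KO libraries and at 10.2 and 10.3 FPKM in WT libraries (log2 change 1.27 ± 0.044 SE, limma, adjusted p = 0.000113). Rhoa, the main activator of ROCK, was at 212 and 218 FPKM in KO libraries and at 157 and 160 FPKM in WT libraries (0.44 ± 0.029 SE, limma, adjusted p = 0.000462). The cofilin phosphatase Ssh1 rose by 0.76 and the guanine nucleotide exchange factor Arhgef2 by 0.45. The myosin phosphatase subunit Ppp1r12a was the 1 that fell (-0.13), and its call was lost whichever library was left out (limma, adjusted p from 0.0879 to 0.207).

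**Figure D4:**
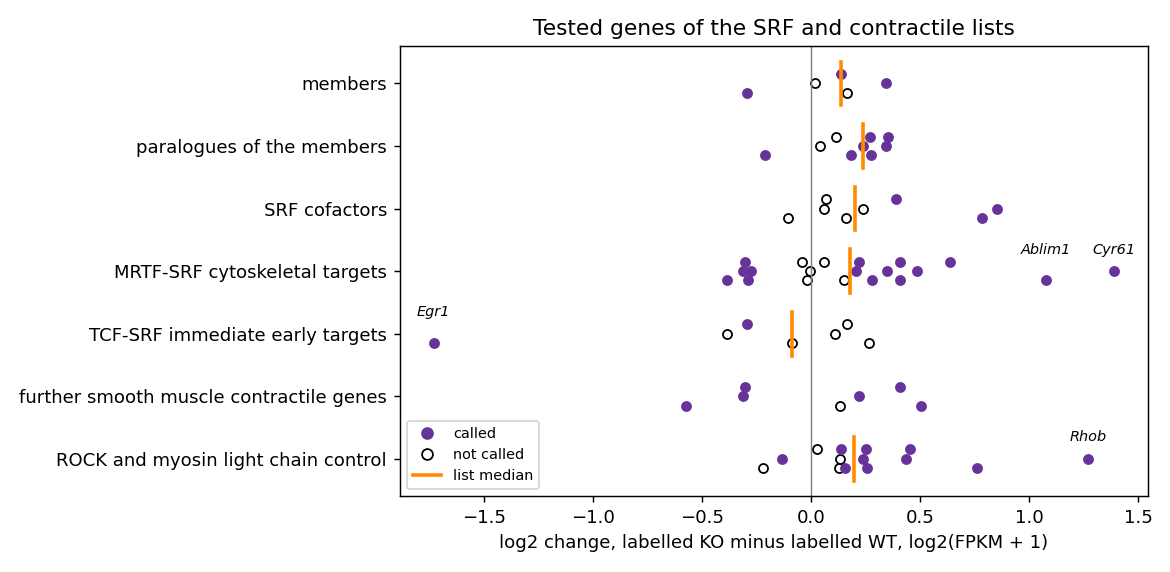
Log2 change (KO minus WT) of the tested genes of the SRF and contractile lists, without the cell type markers; each point is a gene, filled where called by limma, and the bar is the list's median, not drawn for the smooth muscle list. Cyr61, Ablim1 and Rhob lie above 1, Egr1 lies below -1, and of the medians drawn, that of the immediate early list alone is below 0.

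Markers of other cell types were set beside these values. Of 8 pericyte and vascular smooth muscle markers, 7 were below 1 FPKM in every library, and Rgs5, Kcnj8 and Myh11 were at 0. The eighth, the adhesion molecule Mcam, was at 9.81 and 10.4 FPKM in KO libraries and at 4.90 and 4.58 FPKM in WT libraries (log2 change 0.95, limma, adjusted p = 0.00056). Of 12 striated muscle markers, 11 were below 1 FPKM, and the remaining Tnnt2 was not called. The summed level of these 12 was 5.63 to 6.07 FPKM in KO libraries and 5.23 to 5.47 FPKM in WT libraries.

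Of 13 fibroblast markers, 8 were tested, of which 5 fell and 1 rose, where 23.3% of all tested genes were called lower and 24.4% higher. Col3a1 (-1.88), Dcn (-1.70), Pdpn (-1.07), S100a4 (-1.01) and Vim (-0.22) fell, and Col1a1 rose (1.27). The receptors Pdgfra and Pdgfrb were not called (log2 change -0.0068 and 0.12, limma, adjusted p of 0.945 and 0.252). Pdgfra was at 6.49 and 6.95 FPKM in KO libraries and at 7.06 and 6.47 FPKM in WT libraries. Pdgfrb was at 3.51 and 3.33 FPKM in KO libraries and at 2.98 and 3.15 FPKM in WT libraries. Thy1, Postn, Fap and Lum were each below 0.3 FPKM. Col1a2, also below the filter and not tested, was at 0.335 and 0.461 FPKM in KO libraries and at 0.237 and 0.103 FPKM in WT libraries. The summed level of all 13 was 1787 to 1791 FPKM in KO libraries and 2537 to 2703 FPKM in WT libraries. Most of that sum was Vim, at 1163 and 1169 FPKM in KO libraries and at 1367 and 1343 FPKM in WT libraries. Most of the rest was S100a4, at 606 and 594 FPKM in KO libraries and at 1283 and 1146 FPKM in WT libraries. The sum therefore says little about the other markers. Of 13 leukocyte markers, 11 were below the filter, and Cd68 (-1.58) and S100a8 (-1.46) were lower in KO libraries. S100a8 kept its call in 3 of 10 alternatives, and Ptprc was at 0 in KO libraries and below 0.1 FPKM in WT libraries. The summed level of the leukocyte list was 2.72 to 3.32 FPKM in KO libraries and 10.4 to 13.3 FPKM in WT libraries. In bulk RNA, fewer cells of a type and less RNA per cell cannot be told apart, and the part of these markers in the changes of Tpm1, Tpm2 and the other genes was not tested.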

How the data were processed

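The authors deposited 1 table of FPKM values per library, for 24346 gene symbols. The headers name no unit, which was taken from the values and from Cufflinks in the processing notes. The submitters' processing notes list Cufflinks 2.2.1, SAMtools 0.1.19, Bowtie2 2.2.3, TopHat2 2.0.13 and build mm10. Per the labels' protocols, RNA was purified on RNeasy columns before a strand-specific TruSeq mRNA preparation. Settings, annotation and strand handling are not given in the sources used here. FPKM corrects for transcript length and depth, not for differences in RNA composition between libraries.

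Values were transformed to log2(FPKM + 1), which understates changes of low genes. All genes averaging 1 FPKM or more were fitted with limma 3.58.1 in R 4.3.3 (lmFit, eBayes with a trend, no block, two-sided, Benjamini-Hochberg adjustment over 10827 genes). On simulated data for this comparison (10680 genes), 91.0% of 67 changes of 0.5, 97.0% of 67 changes of 1 and all 66 changes of 2 were recovered. Changes were planted only in genes well above the filter, in a far smaller share of genes than was called here. The noise was drawn from the fitted spread. Changes below 0.5, such as that of Tpm1 (0.34), were not simulated, so the recovery does not extend to the called members or to low genes. Errors of means are standard deviations over 2 libraries. Nothing says whether libraries of a group came from separate cultures, so p-values measure the spread between these samples, which may be technical.

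Relative depth came from the commonest ratio between libraries among genes at or below 0.1 FPKM, and fragment numbers of low genes are the smallest whole numbers that fit within 0.06. With the longest GENCODE M21 transcript of 6 such genes they imply a depth of 11500000 to 17900000 fragments in WT replicate 1, an estimate only. Coordinates came from GENCODE M21 (GRCm38). Tables and plots were made in Python 3.11.15 (pandas 2.3.3, numpy 2.4.6, matplotlib 3.10.9).

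Members and lists were chosen with earlier results of these data known. Named genes were the members, their expressed paralogues and SRF cofactors, Arid5a, and up to 4 called genes of each other list with the largest change. Mylk, Tes, Lima1, Wdr1, Pdlim5, Vcl, Cald1, Ppp1r12a, S100a4, Vim and genes named as absent or low were added after their values were seen. So were Pdgfra, Pdgfrb, Fos, Junb, Mcl1 and Nr4a1, which with Tnnt2 are not in the counts of named genes over the alternatives. A gene of the smooth muscle list is not reported here, and counts over that list leave it out.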

Additional observations from a re-analysis of the deposited data

How the results depend on the processing

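The alternatives were a pseudocount of 0.1, no filter, a filter of 5 FPKM, median-ratio and quantile scaling, robust moderation, a replicate block, and leaving out each library in turn. Tpm1 (log2 change 0.27 to 0.39) and Tpm2 (-0.31 to -0.27) kept their direction and call in all 11. The number of genes called was 3216 to 3974 when 1 library was left out (3325 without WT replicate 1 and 3216 without WT replicate 2), against 5159. The members called higher numbered 1 to 2 on such omissions, with Srf (0.29) in place of Cnn2 without KO replicate 1. Omissions gave log2 changes of 0.11 to 0.17 for Cnn2, each below the threshold, and of 0.040 to 0.29 for Srf. The sign turned for Tagln2 (-0.040) and Tpm3 (-0.013) under quantile normalization and for Fhl2 without WT replicate 1 (-0.0090 to 0.13 over the omissions), none of them called. The cause was not tested. Across all named genes with a test, 548 values kept direction and side of the threshold, 20 lost a call, 1 gained a call and 3 changed sign.

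The replicate numbers are not stated to pair libraries, and with 2 pairs the deviations of same-numbered libraries had a correlation of 0.138 across genes. With the replicate block 4673 genes were called, among them 2 members higher and 1 lower. The adjusted p (limma) with the block was 0.00798 for Tpm1, 0.00858 for Tpm2 and 0.0301 for Cnn2. Among named genes the block ended the calls of Ppp1r12a and S100a8 (limma, adjusted p of 0.0517 and 0.107), and the listed genes outside the 10 that were called numbered 29 higher and 17 lower with it, against 31 and 18.

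With 2 libraries a group and values at or near 0, changes of Acta2, Actg2, Tagln, Cnn1 and Myl9 could not be resolved.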
